A study of Mus musculus with 10 samples.

Results

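Transcripts of 9 tight junction genes were followed in bEnd.3 cells after a mucinase had been applied to the cell surface. The genes were chosen by name from the 27024 rows of the deposited table that carry a gene name, and each stood on a single row. They comprise the claudins *Cldn5* and *Cldn12*, occludin (*Ocln*), the scaffold proteins *Tjp1* and *Cgnl1*, and the immunoglobulin-like adhesion molecules *F11r*, *Jam2*, *Jam3* and *Esam*. bEnd.3 is an immortalised mouse brain endothelial line, recorded as wild type, and StcE is a bacterial mucinase, a protease whose substrates are heavily O-glycosylated mucin domains. Of the 10 samples, 5 received 5 nM StcE (replicates 1, 2, 3, 5 and 6) and 5 saline (replicates 1, 2, 3, 4 and 5), all in serum-containing growth medium for 16 h. The controls held no inactive enzyme, so an effect of mucin cleavage cannot be told apart from any other effect of the enzyme preparation. Whether the samples of a group were separate cultures is not given in the sources used here, so p-values measure the spread between these samples, which may be technical.

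Tight junctions seal the cleft between neighbouring endothelial cells and give the blood–brain barrier its low paracellular permeability. Claudins and occludin span the membrane at the contact, junctional adhesion molecules and ESAM hold the opposing membranes together, and the ZO proteins and cingulin family members tie the complex to the actin cytoskeleton from the cytoplasmic side. In brain endothelium claudin-5 is the dominant claudin, and its loss opens the barrier to small molecules.

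The unit of the values is FPKM, the fragments that fell on a gene per kilobase of its exons, scaled to the depth of the sample. Fragments recovered from the FPKM ranged from 21675440 to 28695493 per sample with saline and from 21606024 to 32769906 with StcE. Endothelial identity was read from summed levels. The 12 endothelial markers examined together summed to 1721 to 1810 FPKM with saline and 1612 to 1695 with StcE. Of the 12, 6 were lower and 1 higher after StcE past the threshold (limma adjusted p under 0.05, in the fit described below). Over all genes tested in that fit, 6.41% were lower and 5.52% higher past it. All 12 had a mean FPKM of at least 1, down to *Vwf* at 1.42 with saline and 1.14 with StcE. So did 1 marker each of mural cells (*Acta2*), neurons (*Tubb3*), epithelium (*Krt19*) and fibroblasts (*Pdgfra*). Markers of other cells summed to at most 5.35 FPKM for mural cells (6 of 7 listed), 3.23 for neurons (3 of 3), 1.97 for epithelium (4 of 5), 1.51 for fibroblasts (3 of 4), 0.115 for astrocytes (5 of 5) and 0.109 for immune cells (4 of 4) in any sample. *Epcam*, *Krt8*, *Cspg4*, *Kcnj8*, *Abcc9*, *Rbfox3*, *Snap25*, *Dcn* and all markers of astrocytes and immune cells had means under 0.1 FPKM, and 1 marker of another cell type, the neuronal tubulin *Tubb3*, rose past the threshold.

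The 9 genes spanned a 387-fold range of levels. With saline, *Cldn5* was the highest at 309.6 ± 19.8 FPKM (SD, n = 5 here and below), followed by *Esam* at 185.4 ± 2.36 and *Cgnl1* at 162.7 ± 6.60. *F11r* stood at 74.4 ± 1.72 FPKM and *Tjp1* at 38.9 ± 1.44. The lower end was formed by *Cldn12* at 9.84 ± 0.221, *Jam3* at 4.37 ± 0.215, *Jam2* at 3.17 ± 0.364 and *Ocln* at 0.799 ± 0.0711 FPKM. No neighbours in this order overlapped in their saline samples. The order was the same with StcE, where only *Esam* and *Cgnl1* came to overlap, at 171.0 to 180.6 FPKM against 159.0 to 179.4. Behind these levels stood between 29873 and 46425 fragments per sample for *Cgnl1* and between 56 and 106 for *Ocln*, the extremes among the 9.

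**Figure D1:**
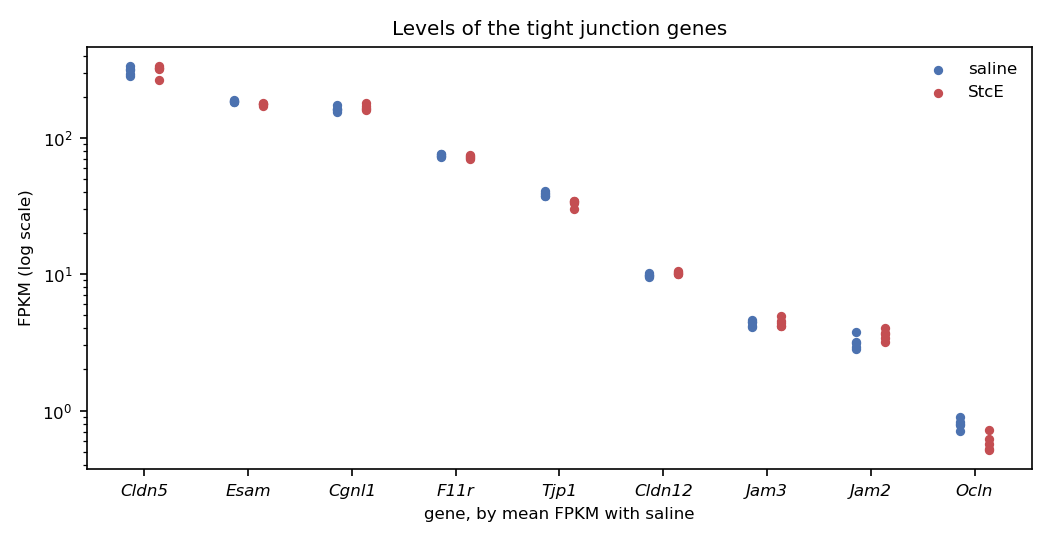
FPKM of the 9 tight junction genes on a log scale, with 1 point per sample, 5 saline (blue) and 5 StcE (red) for each gene, ordered by the mean with saline. *Cldn5* is at the top and *Ocln* at the bottom under 1, and the ranges of *Esam* and *Cgnl1* meet in the StcE samples.

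The region before the start site is shown for *Cldn5*, the highest of the 9 genes, *Ocln*, the lowest, and *Tjp1*, the gene with the largest difference between groups among those tested. RefSeq promoter windows on GRCm38.p6 were matched for 6 of the 9 genes and not for *Esam*, *Jam2* and *Jam3*. Each line gives the 250 bases before an annotated start site, 5′ to 3′ on the strand of the gene, and capitals mark GC boxes. *Tjp1* is shown at chr7:65371245-65371494 (minus strand), *Cldn5* at chr16:18776597-18776846 (plus strand) and *Ocln* at chr13:100552719-100552968 (minus strand).
Tjp1: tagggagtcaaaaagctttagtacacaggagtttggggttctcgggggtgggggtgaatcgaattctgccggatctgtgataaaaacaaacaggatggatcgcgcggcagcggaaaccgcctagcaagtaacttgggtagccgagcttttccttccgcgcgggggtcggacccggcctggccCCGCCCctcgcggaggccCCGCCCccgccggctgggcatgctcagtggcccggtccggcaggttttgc
Cldn5: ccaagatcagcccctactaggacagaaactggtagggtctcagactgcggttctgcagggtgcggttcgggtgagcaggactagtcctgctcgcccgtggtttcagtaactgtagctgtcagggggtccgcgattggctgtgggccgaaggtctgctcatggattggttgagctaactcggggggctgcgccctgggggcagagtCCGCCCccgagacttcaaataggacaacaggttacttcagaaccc
Ocln: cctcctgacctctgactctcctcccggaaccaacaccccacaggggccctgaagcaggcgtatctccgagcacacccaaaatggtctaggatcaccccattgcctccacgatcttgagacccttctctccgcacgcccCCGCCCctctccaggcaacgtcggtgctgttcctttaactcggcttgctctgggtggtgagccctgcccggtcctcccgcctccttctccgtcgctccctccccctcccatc

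A GC box, GGGCGG or CCGCCC on the other strand, was present in 8 of the 9 windows of the 6 genes with an entry (*Cldn12* has 3 windows, 1 of them without a box, and *Ocln* has 2, and the windows of a gene overlap), with 2 boxes in the window of *Tjp1* and 1 each in the windows of *Cldn5* and *Ocln* shown here. Of all 32851 windows of the same length, 32.7% held a GC box. The motifs TATAAA (12.4% of all windows), CCGGAAGT of ETS factors (2.88%), AACAAT of SOX factors (9.42%) and GTAAACA of FOXO factors (3.17%), each searched on both strands, had 0 matches in the windows of the 6 genes. The motifs were chosen after the expression values had been seen, and a match is a description of letters only. The GC content was 63.2% for *Tjp1*, 59.6% for *Cldn5* and 64% for the *Ocln* window, against a median of 52.4% over all windows. *Cldn5* (chromosome 16, 18776847 to 18778262) is a single-exon gene on the GENCODE vM21 annotation. *Tjp1* (chromosome 7, 65296165 to 65527781) has 7 annotated transcripts and extends upstream of the start site shown, so its window lies within the gene. *Ocln* (chromosome 13, 100496507 to 100552718) has 5 annotated transcripts. *Esam* lies on chromosome 9 (37528078 to 37538319). FPKM is given per gene, so transcripts of a gene were not separated.

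For StcE against saline, each gene was compared on log2(FPKM + 1) in a limma fit over the 11062 genes whose mean reached 1 FPKM, with the threshold at an adjusted p of 0.05. *Ocln* (mean below 1 FPKM) was under this minimum, and 8 of the 9 were tested. Of these, 2 fell (*Tjp1* and *Esam*), none rose, and 6 were not past the threshold. Over all genes tested 11.9% were past the threshold, 6.41% lower and 5.52% higher. The median log2 fold change was 0.02 over the 8 genes and -6.6e-04 over all genes tested. The call of *Esam* rested on the settings, as described with that gene. FPKM is a relative level in whole-culture RNA, so a smaller share of cells with a transcript and less of it per cell cannot be told apart.

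**Figure D2:**
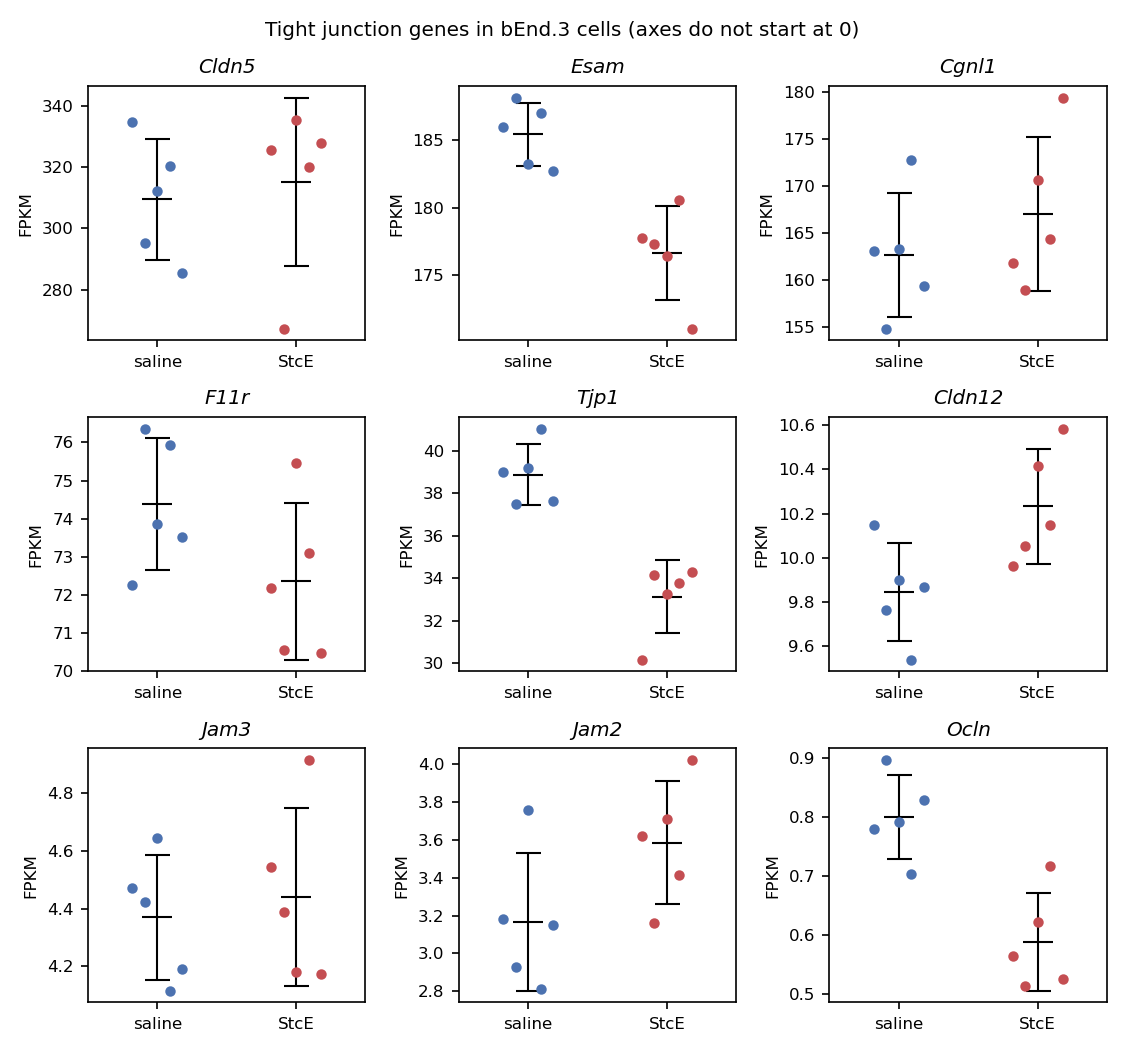
FPKM of each tight junction gene in the 5 saline (blue) and 5 StcE (red) samples, with the mean and SD in black, on axes that do not start at 0. The groups are apart for *Tjp1* and *Esam*, nearly apart for *Ocln*, and mixed for the other 6 genes.

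*Tjp1*, which encodes the scaffold protein ZO-1, fell by 14.8% in mean FPKM. The saline samples held 39.0, 37.5, 39.2, 41.0 and 37.6 FPKM (replicates 1 to 5), and the StcE samples 30.2, 34.2, 33.2, 33.8 and 34.3 (replicates 1, 2, 3, 5 and 6). Every StcE sample was below every saline sample, as was the case for 5.8% of all genes tested, and StcE replicate 1 was the lowest. The log2 fold change was -0.22 (standard error 0.0378, 95% confidence interval -0.31 to -0.14, limma adjusted p = 0.00309), and the exact two-sided permutation test gave p = 0.00794, the smallest value that 5 samples against 5 allow. Without StcE replicate 1 the log2 fold change was -0.19 (limma adjusted p = 0.00279). At least 5542 fragments per sample lay behind the gene, a counting error of at most 1.34%, while the SD between replicates was 3.69% of the mean with saline and 5.17% with StcE. The summed endothelial markers given above were also lower in every StcE sample than in every saline sample, and their part in the fall of *Tjp1* was not tested.

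*Cgnl1*, which encodes the cingulin-like scaffold protein paracingulin, ranged from 154.9 to 172.8 FPKM with saline and from 159.0 to 179.4 with StcE. Its log2 fold change was 0.04 and did not pass the test (95% confidence interval -0.04 to 0.12, limma adjusted p = 0.556). To compare genes directly, ratios were taken within each sample for 3 pairs, picked after the single values had been seen. The ratio of *Tjp1* to *Cgnl1* was 0.239 ± 0.00238 with saline and 0.199 ± 0.0115 with StcE. The groups did not overlap, as they did not for *Tjp1* alone, and because the pairs were picked from the values no test is given. The ratio of *Tjp1* to *Cldn5* overlapped between groups, at 0.126 ± 0.00570 and 0.106 ± 0.0133, through StcE replicate 2 alone (0.128). The other StcE samples, at 0.0925 to 0.106, were below all saline samples, of which the lowest was at 0.116. In the saline samples the ratio to *Cgnl1* varied by 0.998% of its mean, against 3.69% for *Tjp1* and 4.06% for *Cgnl1* alone. Saline replicate 4 was the highest and replicate 2 the lowest for both genes. This closeness did not hold with StcE, where the ratio varied by 5.81%, against 5.17% for *Tjp1* and 4.87% for *Cgnl1* alone. Among the StcE samples *Tjp1* was lowest in replicate 1 and *Cgnl1* in replicate 2. Their exon lengths are 7811 bases for *Tjp1* and 7844 for *Cgnl1*, and a link of length to the saline pattern was not tested.

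**Figure D3:**
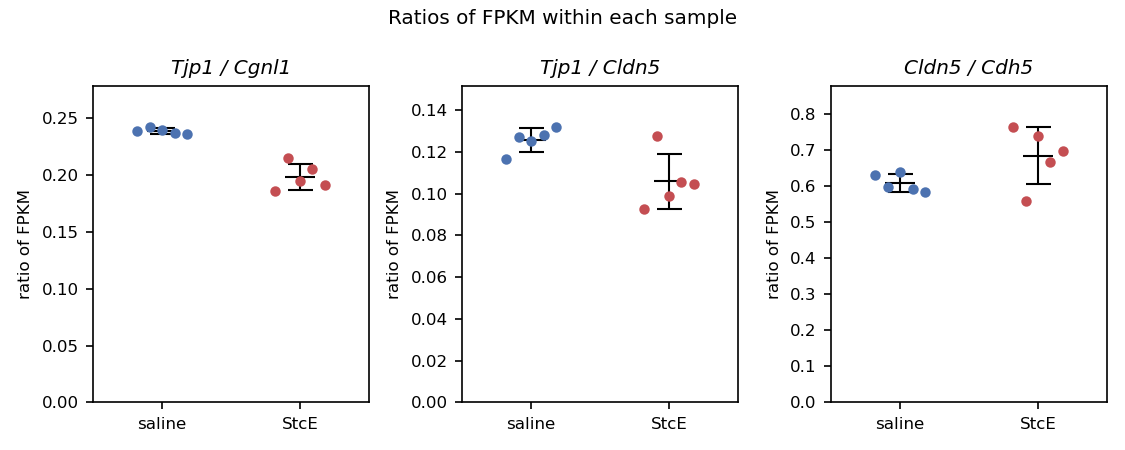
Ratios of FPKM within each sample for 3 pairs of genes, with 1 point per sample, the mean and SD in black, and axes from 0. The ratio of *Tjp1* to *Cgnl1* is tight with saline and lower in all 5 StcE samples. The ratios with *Cldn5* overlap between groups through StcE replicate 2 alone.

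*Cldn5*, the main sealing claudin of brain endothelium, was not past the threshold. Its FPKM was 334.9, 295.1, 312.3, 320.6 and 285.3 in saline replicates 1 to 5 and 325.9, 267.1, 335.5, 320.3 and 328.0 in StcE replicates 1, 2, 3, 5 and 6. Both the highest and the lowest of the 10 values were StcE samples. The log2 fold change was 0.02 (standard error 0.0625, 95% confidence interval -0.11 to 0.16, limma adjusted p = 0.842, exact permutation p = 0.770). StcE replicate 2 lay below all other samples, and without it the log2 fold change was 0.08 (limma adjusted p = 0.248). At least 9818 fragments per sample gave a counting error of at most 1.01%, and the SD between replicates was 6.40% of the mean with saline and 8.73% with StcE. Set against *Cdh5* (VE-cadherin, the adherens junction cadherin of endothelium), *Cldn5* had a ratio of 0.608 ± 0.0255 with saline and 0.684 ± 0.0801 with StcE. The groups overlapped through StcE replicate 2 alone (0.557). The other StcE samples, at 0.666 to 0.762, were above all saline samples, of which the highest was at 0.640.

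*Cldn12*, a claudin that lacks the usual PDZ-binding tail, moved little, from 9.54 to 10.1 FPKM in the saline samples to 9.96 to 10.6 in the StcE samples. Its log2 fold change was 0.05 (95% confidence interval -0.01 to 0.11), with an exact permutation p of 0.0317 but a limma adjusted p of 0.227 over all genes tested. *Cldn5* made up 96.3% to 96.6% of the summed FPKM of the 20 claudin genes in the table with saline and 96.0% to 96.6% with StcE. The other 18 claudins had a mean of at most 0.624 FPKM, reached by *Cldn15*, and 0 of the 18 met the minimum for testing. *Cldn15* had 0.531 ± 0.155 FPKM with saline and 0.718 ± 0.193 with StcE, and *Cldn6*, the next, 0.218 ± 0.127 and 0.311 ± 0.105. For 10 of the 18 no sample held more than 3 fragments.

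*Ocln*, which encodes the tetraspan protein occludin, had the lowest level of the 9. Its saline samples held 0.779, 0.897, 0.791, 0.702 and 0.828 FPKM and its StcE samples 0.564, 0.514, 0.622, 0.717 and 0.526. A single pair of values crossed, saline replicate 4 and StcE replicate 5. The mean with StcE differed from that with saline by -26.4%, a log2 ratio of the means of -0.44, which shrinks to -0.18 on the log2(FPKM + 1) scale (exact two-sided permutation test, p = 0.0159, n = 5 per group). With the minimum lowered to a mean of 0.1 FPKM, 16024 genes were tested and *Ocln* was past the threshold (limma adjusted p = 0.0474). With no minimum it was not (limma adjusted p = 0.0869 over 27024 rows). At 56 fragments, the lowest number in an StcE sample, the counting error was 13.4%, beside an SD between replicates of 14.1% with StcE. With saline, where the lowest number was 68, the SD was 8.89%.

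The adhesion molecules did not move as a group. *Esam*, an endothelial adhesion molecule of the junction, fell by 4.76%. It held 186.0, 188.2, 183.2, 187.0 and 182.7 FPKM with saline and 177.8, 177.3, 176.4, 180.6 and 171.0 with StcE. Every StcE sample was below every saline sample, as for 5.8% of all genes tested (exact permutation p = 0.00794, not adjusted over genes). *Esam* varied least between replicates of the 9 genes, by 1.27% of the mean with saline and 1.98% with StcE. Its log2 fold change of -0.07 (standard error 0.0204, 95% confidence interval -0.11 to -0.03) had a limma adjusted p of 0.0456. The value stayed below 0 in all 22 alternative fits but was past the threshold in 3 of them, and leaving out any 1 sample ended the call (limma adjusted p = 0.0520 to 0.0970).

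The 3 junctional adhesion molecules were not past the threshold. *F11r*, which encodes JAM-A, ranged from 72.3 to 76.4 FPKM with saline and from 70.5 to 75.5 with StcE (log2 fold change -0.04, 95% confidence interval -0.09 to 0.02, limma adjusted p = 0.338). *Jam2*, which encodes JAM-B, was higher on average after StcE, at 3.59 ± 0.324 FPKM against 3.17 ± 0.364, with overlapping groups (log2 fold change 0.14, 95% confidence interval -2.7e-03 to 0.28, limma adjusted p = 0.188). *Jam3*, which encodes JAM-C, a binding partner of JAM-B, had 4.37 ± 0.215 and 4.44 ± 0.307 FPKM (log2 fold change 0.02, 95% confidence interval -0.08 to 0.11, limma adjusted p = 0.831). On 36.2% of its exon length *Jam3* overlaps *Gm48796* on the opposite strand, and whether the counting used strand is not given in the sources used here. *Gm48796* held 20 to 46 fragments per sample, against 302 to 551 for *Jam3*.

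**Figure D4:**
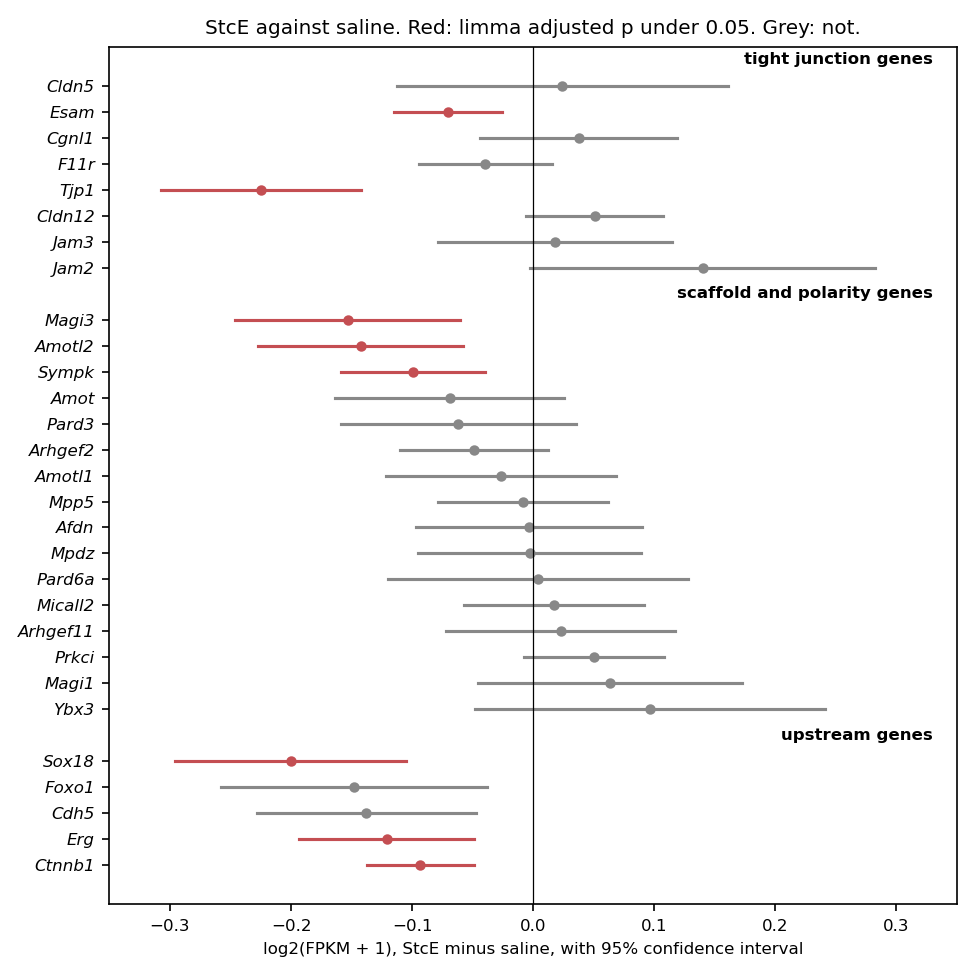
Difference in mean log2(FPKM + 1) between StcE and saline, with its 95% confidence interval, for the 8 tested tight junction genes, 16 of the 17 tested scaffold and polarity genes and 5 genes upstream of the junction. Red marks an adjusted p under 0.05 (limma, all genes tested). All red points lie below 0, with *Tjp1* the farthest.

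Other genes of the tight junction were taken from lists written with earlier results of these data known. Of 26 genes for scaffold, plaque and polarity proteins, 25 were in the table and 17 were tested. Of the 17, 3 fell, none rose and 14 were not past the threshold, with a median log2 fold change of -3.4e-03. The share past the threshold was 17.6%, against 11.9% over all genes tested, and the count of genes that fell ranged from 0 to 3 over the 22 alternative fits. *Magi3*, a membrane-associated guanylate kinase, went from 4.19 ± 0.228 to 3.66 ± 0.215 FPKM (log2 fold change -0.15, limma adjusted p = 0.0388). *Amotl2*, an angiomotin family member that links junctions to actin, went from 48.6 ± 2.02 to 44.0 ± 2.24 (log2 fold change -0.14, limma adjusted p = 0.0355). *Sympk*, which encodes symplekin, an RNA-processing protein also found at the plaque, went from 19.4 ± 0.658 to 18.02 ± 0.380 (log2 fold change -0.10, limma adjusted p = 0.0374). These calls were past the threshold in 12, 14 and 11 of 22 alternative fits. Of 8 further membrane proteins of tight and tricellular junctions, 6 were in the table and 0 reached the minimum. The highest were *Clmp*, a relative of the coxsackievirus receptor, at 0.242 ± 0.0870 FPKM with saline and 0.266 ± 0.0478 with StcE, and tricellulin (*Marveld2*) at 0.115 ± 0.0611 and 0.102 ± 0.0239.

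Among 5 genes known to act upstream of *Cldn5* or of junction assembly, 3 fell and none rose, where 6.41% of all genes tested were lower and 5.52% higher. The count of genes that fell was 0 with the replicate block, 1 with no filter, 5 with voom and between 2 and 4 in the other alternative fits. The endothelial transcription factor *Sox18* went from 241.6 ± 14.3 to 210.0 ± 9.86 FPKM (log2 fold change -0.20, limma adjusted p = 0.0135) and *Erg*, an ETS factor, from 125.1 ± 1.85 to 115.1 ± 6.05 (log2 fold change -0.12, limma adjusted p = 0.0356). *Ctnnb1*, which encodes β-catenin, went from 201.1 ± 3.94 to 188.4 ± 2.11 (log2 fold change -0.09, limma adjusted p = 0.0128). *Ctnnb1* was past the threshold in 21 of 22 alternative fits and *Sox18* in 20, but *Erg* in 7. *Cdh5* (509.1 ± 25.9 FPKM with saline, 462.7 ± 22.3 with StcE, limma adjusted p = 0.0515) and *Foxo1* (12.6 ± 0.696 and 11.2 ± 0.836, limma adjusted p = 0.0798) were not past it. The median of the 5 was -0.14. The list was not sorted by the direction in which each gene acts, so neither the count nor the median gives a direction for *Cldn5*. *Erg* and *Cdh5* are also among the 12 endothelial markers given above, so their values are not a separate observation.

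The genes whose values ran most like those of *Cldn5* across the 10 samples, by the root mean square difference of centred log2(FPKM + 1) values, were *Slc14a1* (0.0493), *Apold1* (0.0505) and *Rsbn1l* (0.0555), where the values of *Cldn5* themselves spread by 0.103 on this measure. For *Tjp1* (own spread 0.126) they were among others *Foxo3* (0.0236) and *Etv6* (0.0309). Each is among the closest of 11057 genes compared. The measure keeps the difference between the groups, so a gene with a similar fall after StcE also scores as alike. *Foxo3* went from 10.0 to 8.50 FPKM and *Etv6* from 9.29 to 7.93. These likenesses are a description over 10 samples that share libraries.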

How the data were processed

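RNA of 10 bEnd.3 samples was measured by bulk RNA-seq of strand-specific poly-A libraries. The authors aligned trimmed read pairs to GRCm38, and the submitters' processing notes name HISAT2 2.0.5, featureCounts 1.5.0-p3 and DESeq2 1.32.0. The deposited table gives FPKM in each sample, on 27024 named rows and 22874 empty ones. The annotation release is not given in the sources used here. With GENCODE vM21 exon lengths, 96.6% of values above 0 were whole fragments (within 0.05), including those of all 9 genes. The scale of each sample followed its median-of-ratios size factor within 0.0441%, so the FPKM already carried a normalisation between samples.

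The 11062 genes whose mean reached 1 FPKM entered a fit of log2(FPKM + 1) values (limma 3.58.1, R 4.3.3, eBayes with trend, condition as the sole term, Benjamini-Hochberg adjustment over all of them). Such fold changes understate those of low genes. The procedure was also run on simulated data with independent normal noise in each gene, which real libraries need not follow. A gene not past the threshold was not shown to be unchanged. Exact permutation tests used all 252 arrangements. BLAST 2.17.0 (at least 95% identity over 150 bases, both strands) found a match in another gene for *Jam3* alone of the 9. It covered 10.9% of the longest *Jam3* transcript and lay in *Gm48796*, the gene that overlaps *Jam3* on the opposite strand. Overlapping genes were not set apart in this search, so the match need not be a separate copy. Errors from fragments cover counting error only. Replicates differed by more than sampling noise (chi-square per degree of freedom 3.07 or more).

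The genes and lists were chosen with earlier results of these data known. Genes named beside the 9 are, per list, up to 4 per direction past the threshold, or else the 2 most expressed, and the 3 genes most like *Cldn5* and *Tjp1*, with some items not reported here. *Cdh5*, *Foxo1*, *Gm48796* and single markers were named after their values were seen. No protein sequences were used here.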

Additional observations from a re-analysis of the deposited data

Results flagged for a closer look

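Of 38 groups of 5 samples examined (the 9 tight junction genes and 10 listed genes named with them, in each condition), a single sample lay apart from its group in 2, where chance gives about 1.9. *Cldn5* was at 267.1 FPKM in StcE replicate 2, against 320.3 to 335.5 in the other StcE samples, a gap of 0.777 of the range of the group. *Tjp1* was at 30.2 FPKM in StcE replicate 1, against 33.2 to 34.3, a gap of 0.743 of the range. They were different samples.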

How the results depend on the processing

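*Tjp1* was lower in all 22 alternative fits and past the threshold in 21. With a replicate block on the 8 samples whose numbers occur in both groups, its log2 fold change was -0.22 and its limma adjusted p 0.0574, and those 8 without the block gave 0.0114, a fit added after the results were seen. Samples of the same number were not alike on 1 measure (correlations of same-numbered deviations -0.0965 to 0.0534). On it, 0 of 4 saline samples correlated best with their own number. How replicates were numbered is not given in the sources used here, so whether the samples were paired is not settled. Leaving out 1 sample gave -0.24 to -0.19. *Esam* lost its call at log2 fold changes of -0.070 with an FPKM minimum of 0.1, no filter, eBayes without trend, robust eBayes and voom, -0.061 with total fragments, -0.064 with array weights and -0.056 on the 8 samples with and without the block, and ranged from -0.078 to -0.059 when 1 sample was left out. *Cldn5* turned to -4.9e-03 without saline replicate 5 and *Jam3* to -0.013 without StcE replicate 5, and their highest values with 1 sample left out were 0.082 and 0.036. *Cldn12* passed the exact test alone (log2 fold change 0.051). *Ocln* moved to -0.39 with a pseudocount of 0.1. The number of the 9 genes that fell, 2, became 1 without a filter, with total fragments, both eBayes changes, array weights, voom, the 8 samples without the block and each sample left out, and 0 with the replicate block, where 349 of all genes were past the threshold (885 over those samples without the block). It was 2 with an FPKM minimum of 0.1, where *Tjp1* and *Ocln* passed. The count over all genes was 801 without a filter and 793 to 1255 with 1 sample left out, 793 without StcE replicate 3 and 838 without saline replicate 1. The median log2 fold change of all genes was -6.6e-04 in the main fit. It was 3.4e-03 with upper quartile scaling, 1.3e-03 with median ratio scaling and 7.4e-03 with total fragments. *Ocln* rested on 56 to 106 fragments per sample.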
